A study of Homo sapiens with 6 samples.

Results

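This account covers 10 genes of the interleukin-1 (IL-1) and interleukin-6 (IL-6) cytokine systems, chosen by name from the 38170 annotated features of an RNA-seq table. They are the ligands IL1A, IL1B, IL18, LIF and IL11, and the receptor chains IL1R1, IL1RAP, IL6R, IL6ST and OSMR. Each had 1 entry in the table and each had enough counts to be tested. The libraries came from A549, a human lung carcinoma line, grown in DMEM with fetal bovine serum and antibiotics, and the labels name no cytokine or other treatment. In 3 libraries the cells carried an empty vector, and in the other 3 they overexpressed LOC401312, a long non-coding RNA, from piggyBac, a transposon used to integrate constructs. The labels do not name the promoter of the construct, and they do not say whether a line was 1 clone or a pool. Nor do they say whether replicates were grown apart, and the p-values may therefore reflect technical spread alone.

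Library totals ran from 60971105 to 73994619 counts. The genotype tags of LOC401312 replicates 2 and 3 name other loci, against their titles. The entry STEAP1B (chromosome 7, 22419444 to 22665502, GRCh38), whose span overlaps that of LOC401312, held 9 to 23 counts in vector and 90297 to 94628 in every library titled LOC401312. The summed level of 11 lung epithelial and A549 markers was 17800 to 19300 CPM, the count scaled by library size, in vector and 17400 to 18100 in LOC401312. Single markers differed, however, and of the 9 tested 2 were higher and 3 lower. CDH1 held 4607 to 5534 counts in vector and 7125 to 7482 in LOC401312. AKR1B10 held 133340 to 156532 and 103314 to 113709. SFTPB held at most 18 counts a library and NKX2-1 at most 4. Among 12 leukocyte markers, only 2 had enough counts to be tested. CD14 held 638 to 949 counts a library and ITGAM 228 to 439, while AIF1 and TYROBP were at 0 in every library. Vector replicate 1 stood apart for some of the 12, with 256 counts of PTPRC, the pan-leukocyte phosphatase CD45, against 0 to 8 elsewhere. Placental markers summed to 94.9 and 107 CPM in LOC401312 replicates 3 and 2, and to 0.808 to 1.79 CPM in the other 4 libraries. The summed level of the 8 urothelial and squamous markers separated the groups. It was 10.3 to 11.5 CPM in vector and 2.01 to 2.76 CPM in LOC401312. Of the 7 tested, 3 were lower and none higher. KRT13, a keratin of stratified epithelium, held 253 to 338 counts in vector and 0 to 5 in LOC401312. Counts of KRT4, UPK1A and UPK2 overlapped between the groups. The part of these markers in the results on the 10 genes was not tested.

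IL-1 alpha and IL-1 beta, encoded by IL1A and IL1B, bind the receptor IL1R1, which then recruits the accessory chain IL1RAP. The pair signals through MYD88 and IRAK kinases to NF-kB and MAP kinases, and drives chemokine and acute phase genes in epithelial cells. IL-18 is a related ligand that is made as a precursor and cleaved by caspase-1. The IL-6 family shares the signalling chain gp130, encoded by IL6ST. IL-6 and IL-11 reach gp130 through their own receptors, IL6R and IL11RA, while LIF and oncostatin M pair gp130 with LIFR or OSMR. All of them act through JAK kinases and STAT3.

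Of the 10 genes, IL1RAP and IL6ST were higher and IL1R1 was lower in LOC401312 at an adjusted p of 0.05 in edgeR's quasi-likelihood test, with p-values adjusted by the Benjamini-Hochberg method over all 19620 features tested. The other 7 did not pass. Over all tested features 8.72% passed, 4.13% higher and 4.58% lower, and the median log2 change was -0.001, against 0.04 over the 10 genes. Each log2 change gives LOC401312 relative to vector, with a standard error (SE) and a 95% interval from the same fit. In CPM the groups did not overlap for 6 of the 10 genes, 5 higher and 1 lower, where 27.9% of all features did not overlap, 14.0% higher and 13.9% lower. Fewer expressing cells and less RNA per cell cannot be told apart in these bulk samples.

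**Figure D1:**
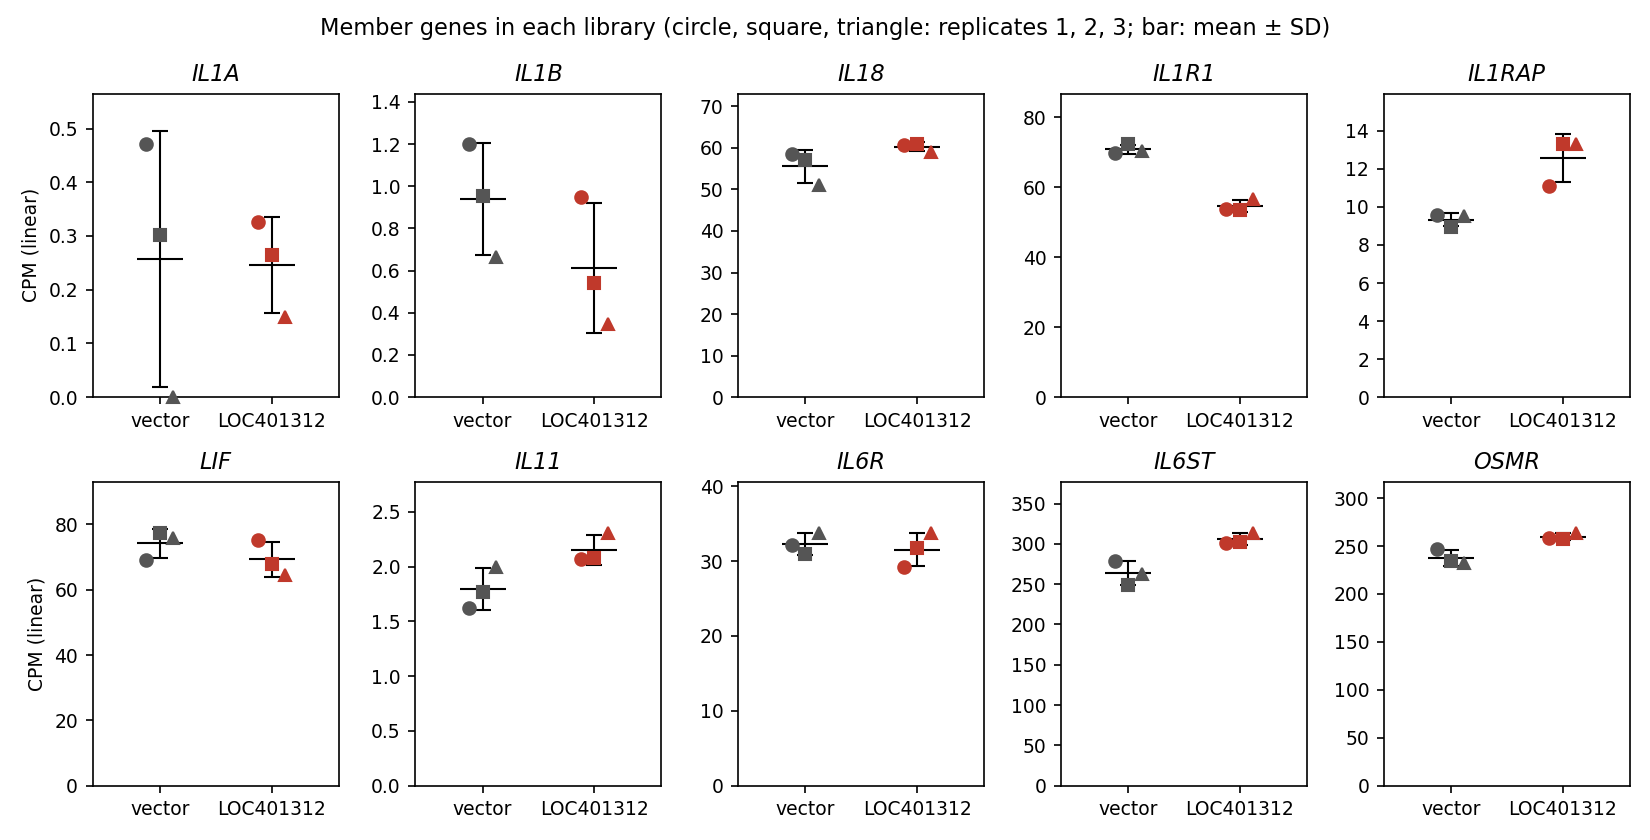
CPM (linear axis from 0) of the 10 genes in the 3 vector libraries (grey) and the 3 LOC401312 libraries (red), with the mean and SD as black bars. IL1R1 lay at 53.4 to 56.5 CPM in LOC401312 and 69.9 to 72.3 CPM in vector, while IL1A and IL1B spread widely within both groups.

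Levels were first compared between genes in FPKM, the deposited value scaled for transcript length. The order was the same in both groups, from OSMR down to IL1A. In vector, OSMR was at 26.6 ± 2.02 FPKM, IL6ST at 21.0 ± 1.96 and IL18 at 17.1 ± 1.75 (SD, n = 3 each). LIF followed at 15.3 ± 0.37 FPKM, IL1R1 at 7.97 ± 0.26 and IL6R at 4.01 ± 0.221 (SD, n = 3 each). The lowest were IL1RAP at 0.643 ± 0.0451 FPKM, IL11 at 0.53 ± 0.0436, IL1B at 0.24 ± 0.08 and IL1A at 0.1 ± 0.0954 (SD, n = 3 each). Neighbours in this order had separate ranges except IL18 and LIF in vector and IL1B and IL1A in both groups. The transcripts of OSMR and of the shared chain gp130 were thus the most abundant of the 10 per length, and the ligands IL1A and IL1B the least.

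The ligands of IL-1 itself were barely counted. IL1A (ENSG00000115008; chromosome 2, 112773925 to 112784493, minus strand) had counts of 35, 18 and 0 in vector replicates 1, 2 and 3, and of 23, 18 and 10 in the LOC401312 replicates. IL1B (ENSG00000125538; chromosome 2, 112829751 to 112836816, minus strand) had counts of 89, 57 and 41 in the vector replicates and of 67, 37 and 23 in the LOC401312 replicates. In each group the library numbered 1 held the most of both transcripts and the library numbered 3 the fewest, and the groups overlapped. The 0 counts of IL1A in vector replicate 3 allow a level of up to 0.0488 CPM, from a limit of 3 counts in that library, which covers counting error only.

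Neither ligand passed the test. The log2 change of IL1A was -0.07 (SE 0.96, 95% interval -2.2 to 2.06, adjusted p = 0.977 in edgeR), so a change of several fold in either direction was not detectable at this depth. IL1B changed by -0.62 on the log2 scale (SE 0.42, 95% interval -1.56 to 0.33, adjusted p = 0.451 in edgeR), from 0.94 ± 0.266 to 0.612 ± 0.309 CPM (SD, n = 3 each). IL1B is best known from myeloid cells. The summed CPM of the 12 leukocyte markers was 21.7, 16.1 and 16.8 in vector replicates 1, 2 and 3. In LOC401312 it was 19.8, 16.6 and 18.3. In each group it was highest in replicate 1, the library with the most IL1A and IL1B. It was lowest in replicate 2, however, whereas replicate 3 had the fewest counts of both ligands. CD14 and ITGAM made up most of the sum, with 949 and 439 counts in LOC401312 replicate 1, where PTPRC and LYZ had 0. The part of those markers in the ligand counts was not tested. Without vector replicate 1 the log2 change of IL1B was -0.40 and that of IL1A was 0.71 (adjusted p = 0.691 and 0.788 in edgeR).

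IL18 was by contrast an abundant transcript. IL18 (ENSG00000150782; chromosome 11, 112143253 to 112164093, minus strand) stood at 58.5, 57.0 and 51.1 CPM in vector and at 60.8, 60.9 and 59.0 CPM in LOC401312. The groups did not overlap, with LOC401312 higher by a small margin. The log2 change was 0.12 (SE 0.06, 95% interval -0.01 to 0.24) and did not pass (adjusted p = 0.255 in edgeR). That interval reflects the spread between these libraries only, so it does not bound a difference between separately grown cultures.

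The receptor chains of IL-1 moved in opposite directions. IL1R1 (ENSG00000115594; chromosome 2, 102064544 to 102179866, plus strand), the ligand-binding chain, stood at 69.9, 72.3 and 70.3 CPM in vector and at 53.7, 53.4 and 56.5 CPM in LOC401312. The groups were far apart relative to their spread. IL1R1 fell by 0.38 on the log2 scale, a 0.77-fold level (SE 0.04, 95% interval -0.48 to -0.28, adjusted p = 0.0008 in edgeR). It stayed past the threshold without each library in turn, with log2 changes between -0.40 and -0.36. With LOC401312 replicate 1 alone against vector, the library without the placental markers, it was at -0.40 and did not pass (adjusted p = 0.0749 in edgeR).

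IL1R1 lies on chromosome 2, and the part of that position in its change was not tested. Of 1285 tested features of the chromosome, 348 (27.1%) passed as lower and 17 (1.32%) as higher, and their median log2 change was -0.23. Within 1 Mb of IL1R1, 13 other features were tested, 5 fell, none rose, and the median was -0.31. Among the 780 chromosome 2 features with a mean of at least 4 CPM, 137 (17.6%) had a log2 change at or below that of IL1R1. With the median of each chromosome removed from each library, IL1R1 was at -0.15 and no longer passed (adjusted p = 0.0824 in edgeR). IL1A and IL1B lie on the same chromosome, and their log2 changes with chromosome medians removed were 0.16 and -0.39.

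IL1R1 is also abundant in fibroblasts, so their markers are given beside it. All 7 fibroblast markers on the list were tested, 2 lower and 1 higher. Their summed level was 69.5, 39.6 and 48.2 CPM in vector replicates 1, 2 and 3 and 23.8 to 27.5 CPM in LOC401312. Vector replicate 1 stood apart here too, with 1549 counts of COL3A1 against 193 and 481 in vector replicates 2 and 3. LUM and DCN had more counts in every LOC401312 library than in vector replicates 2 and 3, but fewer than in vector replicate 1. COL1A1 held 1312 to 1735 counts in vector and 767 to 917 in LOC401312, while FAP held 7 to 25 and 55 to 87. The part of these markers in the level of IL1R1 was not tested.

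IL1RAP (ENSG00000196083; chromosome 3, 190514051 to 190657196, plus strand), the accessory chain without which IL1R1 does not signal, went the other way. It stood at 9.55, 8.95 and 9.51 CPM in vector and at 11.1, 13.3 and 13.3 CPM in LOC401312. All LOC401312 libraries lay above all vector libraries, with replicate 1 the lowest of them. IL1RAP rose by 0.43 on the log2 scale, 1.35-fold (SE 0.1, 95% interval 0.2 to 0.66, adjusted p = 0.0274 in edgeR). The call was lost without vector replicate 2 or 3 or LOC401312 replicate 2 or 3 (adjusted p up to 0.119), and with LOC401312 replicate 1 alone against vector the change was 0.25 (adjusted p = 0.563). The call was also lost without a filter on low counts (0.0527) and in limma on log2 FPKM with a pseudocount of 0.1 (0.0654) or 0.01 (0.0628), but not of 1 (0.0478). Its 15 annotated transcripts, which include membrane and soluble forms, were counted together.

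**Figure D2:**
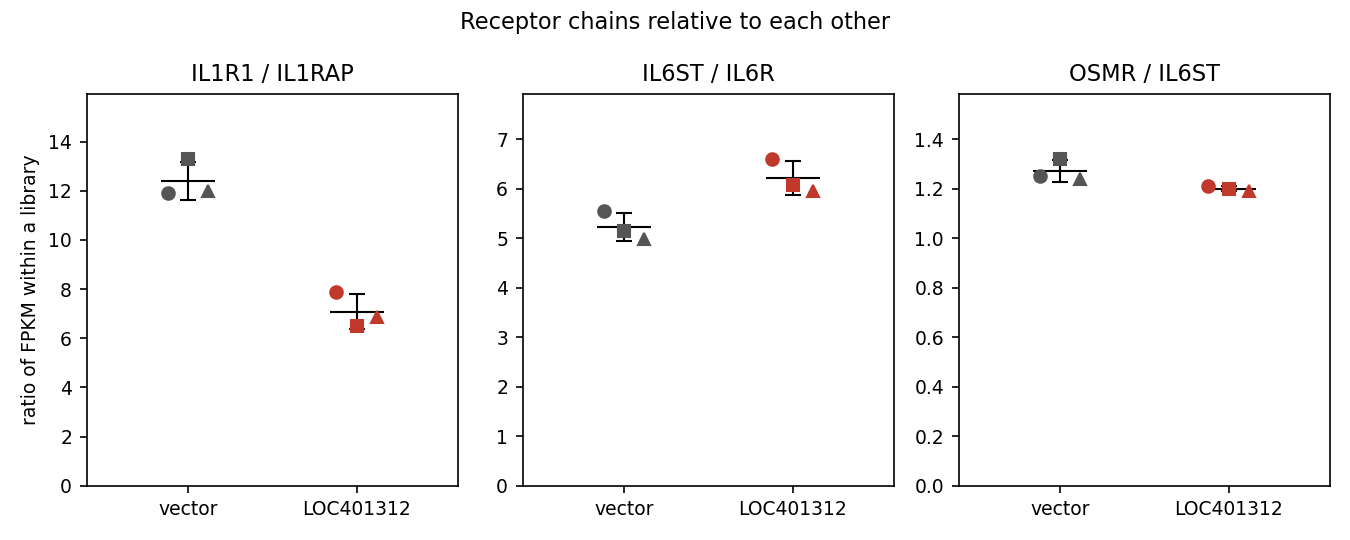
Ratio of deposited FPKM values within each library (linear axes from 0) for IL1R1 to IL1RAP, IL6ST to IL6R and OSMR to IL6ST, with circles, squares and triangles for replicates 1, 2 and 3, and mean ± SD as bars. The ratio of IL1R1 to IL1RAP lay between 11.9 and 13.3 in vector and between 6.51 and 7.88 in LOC401312.

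A ratio within a library does not depend on how libraries are scaled. The FPKM of IL1R1 was 11.9, 13.3 and 12 times that of IL1RAP in vector, and 7.88, 6.51 and 6.87 times in LOC401312. The mean ratio was 12.4 ± 0.741 in vector and 7.09 ± 0.712 in LOC401312 (SD, n = 3 each), 1.75 times as high in vector, and the groups did not overlap. FPKM values are given to 2 decimals, which limits the precision for IL1RAP, at 0.6 to 1.0 FPKM. An exact permutation test, two-sided, gave p = 0.1, the smallest value that 3 against 3 allows. It was also 0.1 for the other 2 ratios computed, and stayed 0.1 after adjustment over the 3. IL1R1 and IL1RAP each separated the groups, in opposite directions, so their ratio had to separate them and adds no further evidence. The ratio also carries the change of IL1R1, which was -0.38, and -0.15 with chromosome medians removed. The part of chromosome 2 in the ratio was not tested.

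The promoters of the IL-1 system differed in makeup, and 4 are shown because they set the scarce ligands beside the accessory chain and gp130, the 2 transcripts that rose. The sequences are from RefSeq on GRCh38.p14, 5′ to 3′ on the gene's strand, and end before any annotated transcript begins. The RefSeq table held windows for 8 of the 10 genes, 12 windows in all, each with the 250 bases before a start. Capitals mark matches on either strand to TTCNNNGAA (STAT), TGANTCA (AP-1), TTNNGNAAT (C/EBP) or an NF-kB motif.
IL1A, chr2:112784591-112784743, minus strand: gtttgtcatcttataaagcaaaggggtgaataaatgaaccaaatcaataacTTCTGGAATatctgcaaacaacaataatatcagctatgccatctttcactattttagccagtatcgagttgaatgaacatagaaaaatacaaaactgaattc
IL1B, chr2:112836904-112837029, minus strand: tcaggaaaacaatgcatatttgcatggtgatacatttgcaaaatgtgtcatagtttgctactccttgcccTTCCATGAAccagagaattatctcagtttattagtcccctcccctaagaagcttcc
IL1RAP, chr3:190513835-190514050, plus strand: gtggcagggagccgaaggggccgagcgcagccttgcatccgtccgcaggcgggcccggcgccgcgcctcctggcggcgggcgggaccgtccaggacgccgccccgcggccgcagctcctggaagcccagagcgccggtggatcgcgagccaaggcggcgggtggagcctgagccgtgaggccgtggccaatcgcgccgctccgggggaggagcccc
IL6ST, chr5:55995023-55995213, minus strand: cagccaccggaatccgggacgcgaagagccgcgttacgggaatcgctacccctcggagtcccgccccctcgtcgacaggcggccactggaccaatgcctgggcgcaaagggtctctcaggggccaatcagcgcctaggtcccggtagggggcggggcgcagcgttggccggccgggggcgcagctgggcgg

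The printed stretches of IL1RAP and IL6ST were rich in G and C, at 79.2% and 72.8%, and held no match. Those of IL1A and IL1B had 31.4% and 40.5% G and C, and held a match to the C/EBP letters in IL1A and to the STAT letters in IL1B. The median of all 35116 windows was 58.0% G and C over 250 bases. IL11, a ligand with a lower FPKM than IL1RAP, had 67.2% over the same length. The contrast among the 4 shown therefore did not hold for every scarce ligand. Over the full 250 bases, IL1A also held the AP-1 letters, as did IL11, and OSMR and IL1B held the C/EBP letters. One of the 4 windows of IL1R1 held the STAT letters. The windows of IL6R, IL1RAP and IL6ST had no match to any of the 4 motifs, and no window of the 8 genes had the NF-kB letters. Among all windows, 5.07% held the NF-kB, 6.57% the STAT, 6.57% the AP-1 and 9.85% the C/EBP letters. A match describes letters and is not a measured site.

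The ligands of the IL-6 family did not pass. LIF (ENSG00000128342; chromosome 22, 30240453 to 30246759, minus strand), a cytokine that many carcinoma lines secrete, stood at 69.1, 77.5 and 76.0 CPM in vector and at 75.3, 67.9 and 64.6 CPM in LOC401312. The groups overlapped. Its log2 change was -0.10 (SE 0.07, 95% interval -0.25 to 0.05, adjusted p = 0.439 in edgeR), and it was 0.03 in the deposited FPKM values. The FPKM values are shifted upwards in LOC401312, by a median of 0.109 on the log2 scale over features whose mean reached 5 FPKM, and of the features past the threshold in FPKM 84.2% were higher, against 47.4% in counts. LIF overlaps LIF-AS1 and AC004264 on the opposite strand, with at most 112 counts a library.

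IL11 (ENSG00000095752; chromosome 19, 55364382 to 55370463, minus strand), which is induced by TGF-beta and IL-1 in many cells, was low. It had 1.62, 1.77 and 2.0 CPM in vector and 2.07, 2.08 and 2.31 CPM in LOC401312. The LOC401312 libraries lay just above the vector libraries. The log2 change of 0.26 (SE 0.2, 95% interval -0.19 to 0.71) did not pass (adjusted p = 0.512 in edgeR), on 106 to 154 counts a library.

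Among the receptor chains, gp130 was the 1 that passed. IL6ST (ENSG00000134352; chromosome 5, 55935095 to 55995022, minus strand) stood at 279, 249.6 and 263 CPM in vector and at 301, 302 and 314 CPM in LOC401312. All LOC401312 libraries were above all vector libraries. IL6ST rose by 0.21 on the log2 scale, 1.16-fold (SE 0.05, 95% interval 0.11 to 0.32, adjusted p = 0.0191 in edgeR). The call held without vector replicate 1 and was lost without any other library (adjusted p up to 0.0849), with log2 changes of 0.17 to 0.25. With LOC401312 replicate 1 alone against vector the change was 0.19 (adjusted p = 0.37 in edgeR).

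OSMR (ENSG00000145623; chromosome 5, 38845858 to 38945596, plus strand), the chain that joins gp130 to bind oncostatin M, showed a smaller difference. It stood at 247, 234 and 232 CPM in vector and at 258, 257 and 264 CPM in LOC401312, again with no overlap. The log2 change was 0.13 (SE 0.04, 95% interval 0.04 to 0.22) and did not pass (adjusted p = 0.0763 in edgeR). It did pass in DESeq2 (adjusted p = 0.0154) and, in edgeR, without vector replicate 1 (0.0254). It also passed in every limma fit on log2 FPKM (adjusted p = 0.0247 to 0.0357), where values are shifted upwards in LOC401312. The end of OSMR overlaps RICTOR, on the opposite strand and with 1615 to 3576 counts a library, and no source used here gives the strand setting of the counts.

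IL6R (ENSG00000160712; chromosome 1, 154405193 to 154466877, plus strand), the IL-6 binding chain, did not follow gp130. It stood at 32.2, 30.9 and 33.8 CPM in vector and at 29.2, 31.7 and 33.7 CPM in LOC401312. The groups overlapped, and the log2 change was -0.03 (SE 0.07, 95% interval -0.19 to 0.12, adjusted p = 0.842 in edgeR). Within libraries the FPKM of IL6ST was 5.54, 5.15 and 4.98 times that of IL6R in vector and 6.6, 6.08 and 5.95 times in LOC401312, with no overlap. The ratio of OSMR to IL6ST was 1.25, 1.32 and 1.24 in vector and 1.21, 1.2 and 1.19 in LOC401312, so it was lower in LOC401312 by a narrow margin.

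**Figure D3:**
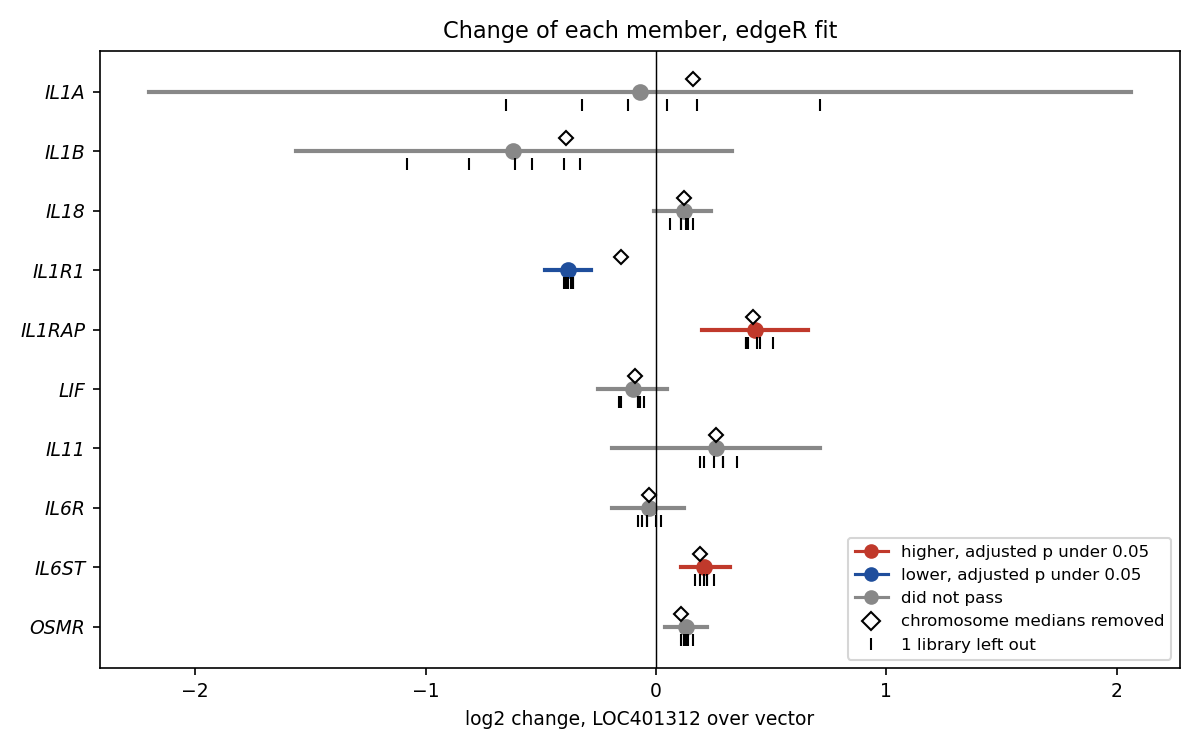
Log2 change of each gene, LOC401312 over vector, with its 95% interval from edgeR (red higher, blue lower, grey did not pass), the value with chromosome medians removed (diamonds) and the 6 values with 1 library left out (ticks). IL1R1 moved from -0.38 to -0.15 when chromosome medians were removed, while IL1RAP (0.42) and IL6ST (0.19) changed little.

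The partners of the 10 genes were then read from lists chosen by function. Of 15 other IL-1 family ligands, receptors and inhibitors, 12 had an entry and 5 were tested. None passed in edgeR or DESeq2, and 1, the IL-18 inhibitor IL18BP, had an unadjusted p under 0.05, with 3.91 ± 0.311 CPM in vector and 5.32 ± 0.916 in LOC401312 (SD, n = 3 each). The inhibitory receptor SIGIRR was at -0.22 (adjusted p = 0.234). IL18R1, the IL-18 binding chain, was at 2.43 ± 0.169 and 2.91 ± 0.366 CPM (SD, n = 3 each), and its partner IL18RAP had 0 counts in every library. The receptor antagonist IL1RN had too few counts to be tested. The decoy receptor IL1R2 was at 0.554 ± 0.103 and 0.591 ± 0.474 CPM (SD, n = 3 each).

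Of 13 genes that mature and release IL-1 beta and IL-18, 10 were tested, of which 1 rose, 1 fell and 8 did not pass. CASP4, an inflammatory caspase that senses lipopolysaccharide, rose by 0.39 (SE 0.08, adjusted p = 0.0117 in edgeR). CASP8, the initiator caspase of death receptors, fell by 0.24 on the log2 scale (SE 0.06, adjusted p = 0.0337 in edgeR). CASP8 lies on chromosome 2 and was at -0.01 with chromosome medians removed (adjusted p = 0.965), and it lost its call without vector replicate 2 or any LOC401312 library (adjusted p up to 0.117). CASP4 lost its call without vector replicate 3 or LOC401312 replicate 2 (adjusted p up to 0.0603). CASP1, which cleaves both precursors, was at 1.63 ± 0.343 CPM in vector and 1.85 ± 0.605 in LOC401312 (SD, n = 3 each), and NLRP3 had too few counts to be tested.

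None of 17 genes that carry the signal from the IL-1 receptor passed in edgeR. With an unadjusted p under 0.05, 2 were higher and 1 was lower, and in DESeq2 2 passed as higher. Over all 19620 features, 1246 passed as higher and 1296 as lower in DESeq2. The share of all features with an unadjusted p under 0.05 is not given here. The list counts at that unadjusted p therefore have no background to be read against. IRAK2, a kinase of the receptor complex, was at 0.22 (adjusted p = 0.0758) and PELI2, a ubiquitin ligase of the same complex, at -0.27 (0.186). The adaptor MYD88 was at -0.10 (95% interval -0.24 to 0.04).

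Of 20 tested genes that respond to IL-1 and NF-kB, 11 rose, 9 did not pass and none fell in edgeR or DESeq2, and none was lower with an unadjusted p under 0.05. Their median log2 change was 0.51, against -0.001 over all features. With LOC401312 replicate 1 alone against vector, 8 rose. CXCL5, a neutrophil chemokine, rose by 0.73 (SE 0.04, adjusted p = 1.26e-05 in edgeR) from 279 ± 11 to 463 ± 13.1 CPM (SD, n = 3 each). CXCL1, a related chemokine, rose by 0.65, and TNFAIP3, which encodes the NF-kB-restraining enzyme A20, by 0.69. SAA1, an acute phase protein induced by IL-1 with IL-6, rose by 1.1 on the log2 scale from 8.57 ± 0.728 to 18.4 ± 0.556 CPM (SD, n = 3 each), but it has a near-identical copy in SAA2, so its own count is uncertain. This list was drawn up with earlier results of these data known, and it is not independent evidence of its direction.

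IL6, which is both such a target and a ligand of gp130, was low and did not pass. Its level was 1.38 ± 0.477 CPM in vector and 2.12 ± 0.204 in LOC401312 (SD, n = 3 each), a log2 change of 0.62 (95% interval 0.02 to 1.23, adjusted p = 0.208 in edgeR). Among 14 other ligands and receptors of the IL-6 family, IL6 included, 10 were tested and none passed in edgeR. With an unadjusted p under 0.05, 3 were higher and none lower, and 1 passed in DESeq2, LIFR. LIFR, the LIF receptor chain, was at 31.9 ± 2.64 CPM in vector and 38.0 ± 3.25 in LOC401312 (SD, n = 3 each; log2 change 0.25, adjusted p = 0.0871 in edgeR). EBI3, a subunit shared by IL-27 and IL-35, was at 0.14 (adjusted p = 0.669). IL11RA stood at 1.06 FPKM in vector and 1.09 in LOC401312, and OSM, the ligand of OSMR, had too few counts to be tested.

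Of 18 tested genes of JAK-STAT3 signalling and its feedback, 2 rose and 1 fell in edgeR, with a median of 0.01. In DESeq2 7 of these genes rose, where 1246 of all 19620 features passed as higher. STAT5B rose by 0.24 (adjusted p = 0.0147) and the adaptor SHC1 by 0.16 (adjusted p = 0.0213), and both calls were lost without vector replicate 3 or any LOC401312 library (adjusted p up to 0.0919). STAT3 itself was at 270 ± 5.09 CPM in vector and 296 ± 5.35 in LOC401312 (SD, n = 3 each; log2 change 0.13, adjusted p = 0.0537). SOCS3, the feedback inhibitor that binds gp130, was at 0.25 (adjusted p = 0.0775).

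Of 22 targets of STAT3 and acute phase genes, 17 were tested, 3 rose, 2 fell and 12 did not pass, with a median of 0.05. FGL1, a protein secreted by liver, rose by 0.71 (SE 0.1, adjusted p = 0.00165). SERPINA3, which inhibits serine proteases, rose by 0.72 (SE 0.13, adjusted p = 0.00684). FGB, the fibrinogen beta chain, rose by 0.39 (adjusted p = 0.0424), while FGA, the alpha chain, fell by 0.19 on the log2 scale (adjusted p = 0.0457). BCL3, a partner of NF-kB subunits that STAT3 induces, fell by 0.23 on the log2 scale (adjusted p = 0.0239). FGB lost its call without any library but LOC401312 replicate 3 (adjusted p up to 0.161), and BCL3 without any but vector replicate 1 (up to 0.106). With any 1 library left out, at most 1 gene of this list passed as lower.

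Of 6 genes listed for the shedding of receptors from the cell surface, none passed in edgeR. With an unadjusted p under 0.05, 1 was higher and 1 lower, and the same numbers passed in DESeq2. BACE1 was at 0.27 (adjusted p = 0.0587) and RHBDF1 at 0.16 (0.333). ADAM17, the protease that releases soluble IL-6 receptor, stood at 80.5 ± 0.96 CPM in vector and 72.5 ± 3.74 in LOC401312 (SD, n = 3 each).

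**Figure D4:**
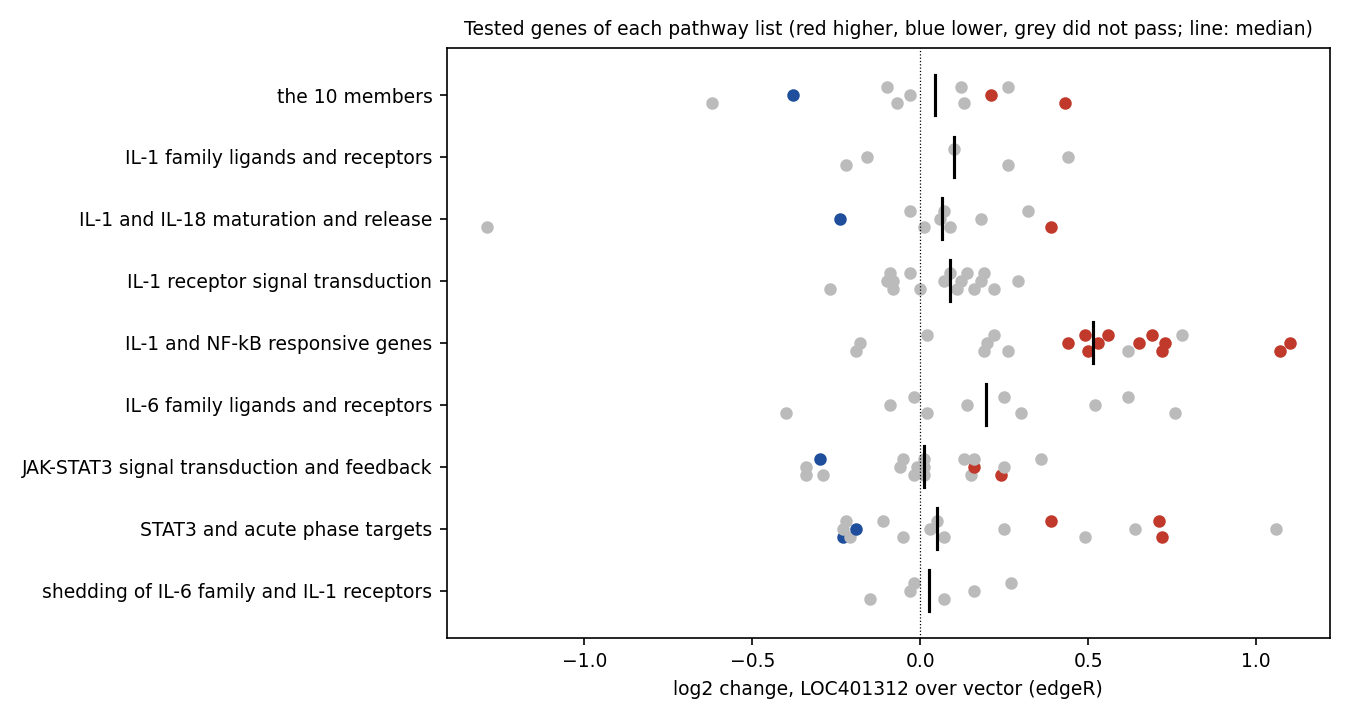
Log2 change, LOC401312 over vector, of every tested gene of the 10 members and the 8 lists (red higher, blue lower, grey did not pass, black line the median). The list of genes that respond to IL-1 and NF-kB had 11 of 20 genes higher and a median of 0.51, and the medians of the other lists lay between 0.01 and 0.19.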

How the data were processed

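RNA was sequenced from 6 A549 libraries, grouped by title. The authors deposited raw counts and FPKM values per feature and library, per the file headers. Per the submitters' processing notes, cutadapt 1.9 and FastQC were used with the build GRCh38 (hg38). No aligner, counter, annotation release, strand setting or FPKM length is stated in the sources used here. Counts were tested with edgeR 4.0.16 (R 4.3.3, quasi-likelihood, TMM, filterByExpr, group as the only term). All adjusted p-values are from this fit unless DESeq2 or limma is named. CPM uses TMM library sizes. On simulated data the fit recovered 38.4% of log2 changes of 0.5 and 58.2% of log2 changes of 1.0, and 2.06% of its calls were false. A gene that did not pass may therefore still have changed. Every member was named, and up to 4 genes per list with the smallest p among those past the threshold, filled up to 2 by size of change at a mean FPKM of at least 1, with untested genes and defining partners of members. IL18BP, FGA, ADAM17, RICTOR and the markers were named after their values were seen. The values of 1 list gene are not reported here. The members and lists were chosen with earlier results of these data known. Alternatives were DESeq2 1.42.0, limma 3.58.1 on log2 FPKM, other scalings and filters, a robust fit, a replicate block, chromosome medians removed, a threshold of 0.01 and libraries left out.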

Additional observations from a re-analysis of the deposited data

How the results depend on the processing

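The number of members higher, 2, was 1 without a filter on low counts, and 0 with a replicate block, with LOC401312 replicate 1 alone against vector or at a threshold of 0.01. It ranged from 0 to 3 when 1 library was left out. It was 3 without vector replicate 1, in DESeq2 and in limma on FPKM with a pseudocount of 1. In the other limma fits on FPKM it was 2, but these were IL6ST and OSMR and not IL1RAP. The number lower, 1, was 0 with chromosome medians removed and with LOC401312 replicate 1 alone, and stayed 1 without each library in turn. With LOC401312 replicate 1 alone the lone library is assumed to vary like the vector libraries. Of 197 values of single members under these settings, 150 kept direction and side of the threshold, 21 lost a call, 6 gained one and 20 turned direction, all 20 in genes that did not pass. IL1A turned to 0.49 with a replicate block, 0.16 with chromosome medians removed, 0.71, 0.05 and 0.18 without vector replicate 1, vector replicate 2 or LOC401312 replicate 3 (range without 1 library -0.65 to 0.71), 0.33 with LOC401312 replicate 1 alone, and 0.14, 0.01 and 0.80 in limma on FPKM with pseudocounts of 0.1, 1 and 0.01. With LOC401312 replicate 1 alone, IL1B and LIF were at 0.02. In limma on FPKM, LIF was at 0.03, 0.02 and 0.03 with those pseudocounts and 0.03 with a mean FPKM of at least 0.5, and IL6R at 0.09, 0.07, 0.09 and 0.09. IL6R was at 0.02 without LOC401312 replicate 1 (range without 1 library -0.08 to 0.02). FPKM values carry the upward shift of 0.109. In limma on log2(FPKM + 0.1), 1639 features were higher and 308 lower, 84.2% higher against 47.4% in edgeR, and 57.0% with total-count scaling. Features higher and lower, 811 and 899, were 1246 and 1296 in DESeq2, 586 and 577 without a filter, 683 and 526 with chromosome medians removed, 333 and 405 at a threshold of 0.01, 84 and 91 with LOC401312 replicate 1 alone, and 393 to 963 and 439 to 1042 without 1 library. The cause of the other changes was not tested.

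Same-numbered libraries had correlations of -0.154, -0.032 and -0.057 in their deviations from the group means over 11799 features. With 3 libraries a group, deviations from a mean constrain each other. These values therefore cannot show whether same-numbered libraries shared a culture or batch. With the replicate block, 509 features were higher and 579 lower, against 811 and 899, IL1RAP had an adjusted p of 0.0674 and IL6ST of 0.0517. The list of genes that respond to IL-1 and NF-kB had 8 to 14 higher over all settings. Other list counts moved over 1.5 times under some settings: JAK-STAT3 genes higher, 2, ranged from 0 to 7, STAT3 targets higher, 3, from 1 to 6 and lower, 2, from 0 to 2, maturation genes higher, 1, from 0 to 4 and lower, 1, from 0 to 1, and receptor signal genes higher, 0, from 0 to 3. IL-6 family genes higher, 0, and shedding genes higher, 0, and lower, 0, each ranged from 0 to 1, and JAK-STAT3 genes lower, 1, from 0 to 1. Depth limits IL1A and IL1B most, at 0 to 89 counts a library.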

Other observations

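The loci around the IL-1 genes on chromosome 2 gave the following values. Within 1 Mb of IL1A and IL1B, 30 other features were tested, 7 fell, none rose and 28 had a negative log2 change, with a median of -0.28. These included POLR1B, a subunit of RNA polymerase I, and ANAPC1, a subunit of the anaphase-promoting complex. Within 1 Mb of IL1R1, 10 of 13 had a negative log2 change. The 5 that fell included MAP4K4, a kinase of stress signalling, and CNOT11, a subunit of the CCR4-NOT deadenylase. IL18R1, which lies in the same receptor cluster, was at 0.26 (SE 0.18), and IL1R2 at 0.10 (SE 0.54), and neither passed. The remaining genes of that cluster, IL1RL1, IL1RL2 and IL18RAP, had 0 counts in every library. These genes were named after their values were seen.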
